A study of Mus musculus with 16 samples.

Results

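ATP-binding cassette (ABC) genes were followed in sorted epithelial cells of the mouse colon. Genes were taken where the mouse symbol begins with Abc, a letter from a to g and a digit, and pseudogenes were left out, which gave 50 protein-coding genes of the 45513 in the count files. Of these 50 genes, 34 passed the filter on low counts and were tested, and 16 did not. RNA was sequenced from EpCAM+ tdTom+ and EpCAM+ tdTom- live cells of 8 mice, with both populations from every mouse, so that each group holds 8 samples. All mice were Atoh1(WT)CreERT2 R26RtdTom animals of C57BL/6 background, of both sexes and 8 to 16 weeks old. Homozygous CreERT2 sits downstream of the Atoh1 coding sequence, and the reporter was carried on 1 allele. Tamoxifen was given to all of them at 1 mg per day on 3 days. The reporter therefore marks cells that expressed Atoh1, the factor that sets the secretory fate, around the time of tamoxifen. The tdTom- sort takes every other epithelial cell together, which can include cells that expressed Atoh1 earlier. In the paper, mature enteroendocrine cells lacked the reporter soon after tamoxifen, although they came from precursors that had expressed Atoh1.

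ABC proteins bind and split ATP, and most use that energy to push substrates across a membrane. In the gut they return drugs, conjugates and plant sterols to the lumen or pass lipids and bile acids to the blood, and other members work in mitochondria, peroxisomes and lysosomes. A small group has no membrane part at all and acts on the ribosome, and another forms the regulatory subunit of a potassium channel.

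Total counts ranged from 16482530 to 24218367 in tdTom+ samples and from 18318172 to 45791503 in tdTom- samples, where mouse 4 gave the deepest library and the other 7 reached at most 20668605. A count of 3, taken here as the lower limit of detection, stood for 0.0655 to 0.182 counts per 1000000 (CPM). Atoh1 itself was higher in tdTom+ cells by 4.56 on the log2 scale (SE 0.12, adjusted p = 1.42e-15), with mean levels of 132 and 5.69 CPM, and Epcam, the gene behind the sort, was abundant in both populations at means of 1220 and 1400 CPM. All 8 goblet cell markers on the list were higher in tdTom+ cells, with a median log2 fold change of 4.08, and their summed level was 51100 to 107000 CPM against 2260 to 8800 CPM. All 8 absorptive colonocyte markers were lower, with a median of -4.32, at 884 to 1150 CPM against 7030 to 13600 CPM. The tdTom- samples also held more enteroendocrine RNA (9 of 9 markers lower in tdTom+ cells, 323 to 823 against 1440 to 4200 CPM) and tuft cell RNA (6 of 7 lower, 56.9 to 118 against 109 to 178 CPM). Of the 6 stem cell markers, 2 were higher and 4 lower, at 439 to 508 against 357 to 534 CPM. Immune markers summed to 3.01 to 5.88 against 5.67 to 29.9 CPM and stromal and endothelial markers to 3.82 to 5.84 against 6.44 to 9.0 CPM. All 3 immune and both stromal or endothelial markers that passed the filter were lower, while Lum had 0 counts in every sample. Mitochondrial transcripts took 2.23% to 6.92% of counts in tdTom+ and 3.74% to 9.97% in tdTom- samples, with the higher share in the tdTom- sample of each of the 8 mice. The part of these markers and of the mitochondrial share in the results on ABC genes was not tested, and in bulk samples fewer cells of a type and less RNA per cell cannot be told apart.

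More ABC genes were lower than higher in tdTom+ cells. At an adjusted p under 0.01 in edgeR's quasi-likelihood test, blocked by mouse, 18 of the 34 tested genes (52.9%) were lower, against 28.9% of all 15841 genes tested, and 9 (26.5%) were higher, against 28.4% of all genes. Without the block, 18 were lower and 6 higher. With a change over 1 on the log2 scale as well, 12 ABC genes (35.3%) were lower and 1 (2.94%) was higher, beside 9.16% and 7.6% of all genes. In 17 ABC genes every tdTom+ sample lay below every tdTom- sample, and in 3 every tdTom+ sample lay above, where 15.3% and 15.2% of all tested genes were split in this way. The median log2 fold change was -0.32 over the ABC genes and 0.0 over all genes tested, and the ABC genes ranged from -4.93 to 1.76. Abcc2 passed the filter only through its tdTom- samples, whereas the other 33 genes would have passed in either population alone. These counts are descriptions of the genes that passed the filter.

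**Figure D1:**
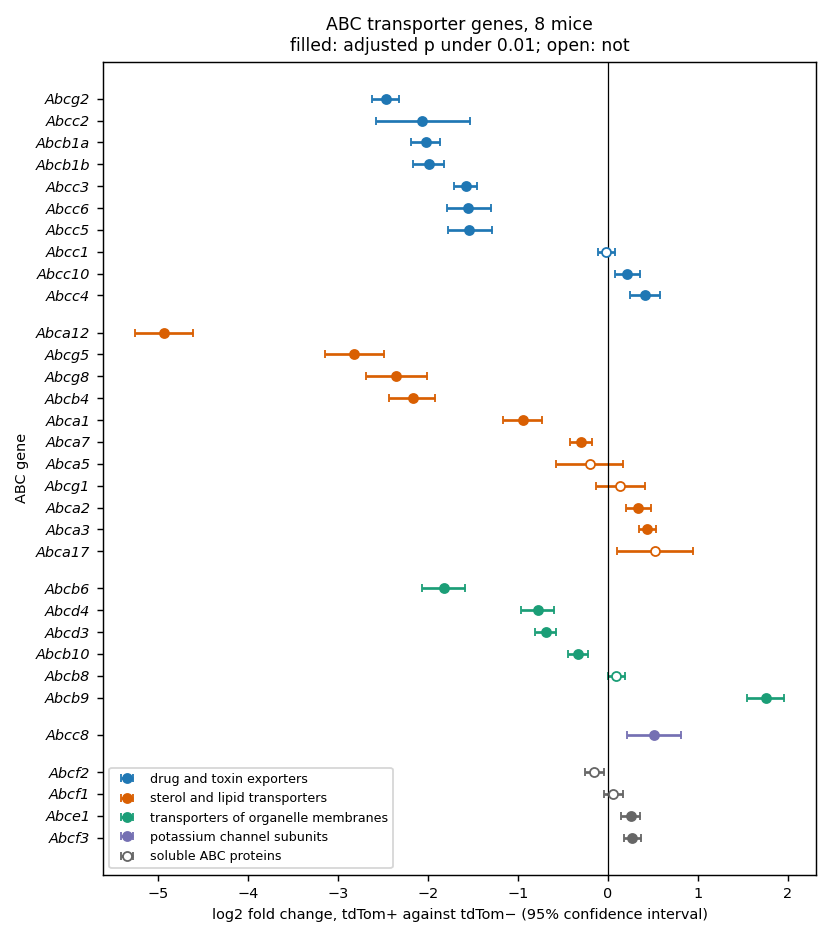
The log2 fold change of 32 tested ABC genes in tdTom+ against tdTom- cells, on the horizontal axis, with bars for the 95% interval of the fit, colours for the 5 roles and filled markers for genes with an adjusted p under 0.01. The genes run from Abca12 at -4.93 to Abcb9 at 1.76, and the 7 exporters of drugs and conjugates that were called lower all lie past -1.

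**Figure D2:**
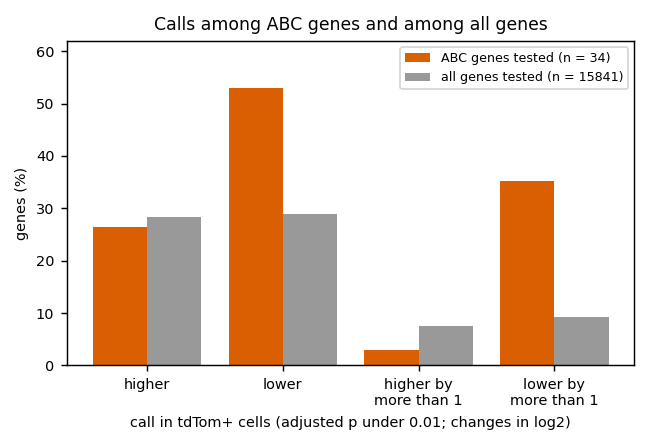
The percentage of tested genes called in each direction, for the 34 ABC genes and for all 15841 genes. The bars for lower calls stand at 52.9% against 28.9% and those for lower calls past 1 on the log2 scale at 35.3% against 9.16%.

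The 50 genes took a smaller share of the RNA in tdTom+ cells. In tdTom+ samples they held 0.132% to 0.163% of all counts, with a median of 0.149%. The share in tdTom- samples was 0.248% to 0.312%, with a median of 0.26%. No tdTom+ sample reached the lowest tdTom- sample. Most of this distance came from 3 abundant genes. Without Abcb1a, Abcc3 and Abcd3 the medians were 0.0973% in tdTom+ and 0.12% in tdTom- samples. The ranges of 0.0855% to 0.108% and 0.113% to 0.134% still did not meet.

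**Figure D3:**
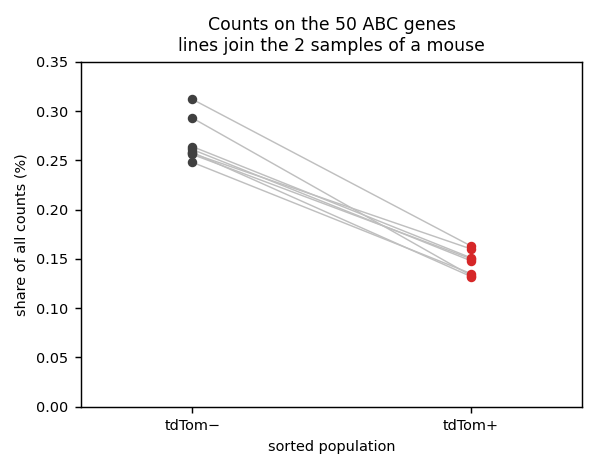
The share of all counts, in percent, that fell on the 50 ABC genes in each sample, with a line joining both samples of a mouse. All 8 lines run downward from tdTom- (0.248% to 0.312%) to tdTom+ (0.132% to 0.163%).

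Levels between genes were compared per length, in transcripts per 1000000 (TPM) computed from the counts. Abcb1a was the most abundant ABC gene in both populations, with a median of 72.9 TPM in tdTom+ and 282 TPM in tdTom- cells. Its portion of the summed ABC level was 10.8% to 14.7% in tdTom+ and 25.7% to 34.8% in tdTom- samples. The next genes in tdTom+ cells were Abce1 (69.2 TPM), Abcd3 (57.9 TPM), Abcf1 (55.1 TPM) and Abcc3 (44.1 TPM). In tdTom- cells Abcc3 came second (139 TPM), followed by Abcd3 (95.8 TPM), Abce1 (56.6 TPM) and Abcf1 (55.6 TPM). Portions of the summed level overlapped between Abce1 (9.06% to 13.1%) and Abcb1a in tdTom+ samples, so the order of these neighbours was not separated by their spread, and the same held for Abce1 and Abcf1 in tdTom- samples (4.01% to 6.97% and 4.12% to 6.93%). Abcg2 stood in place 6 in tdTom- cells with 47.6 TPM and in place 17 in tdTom+ cells with 8.65 TPM.

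**Figure D4:**
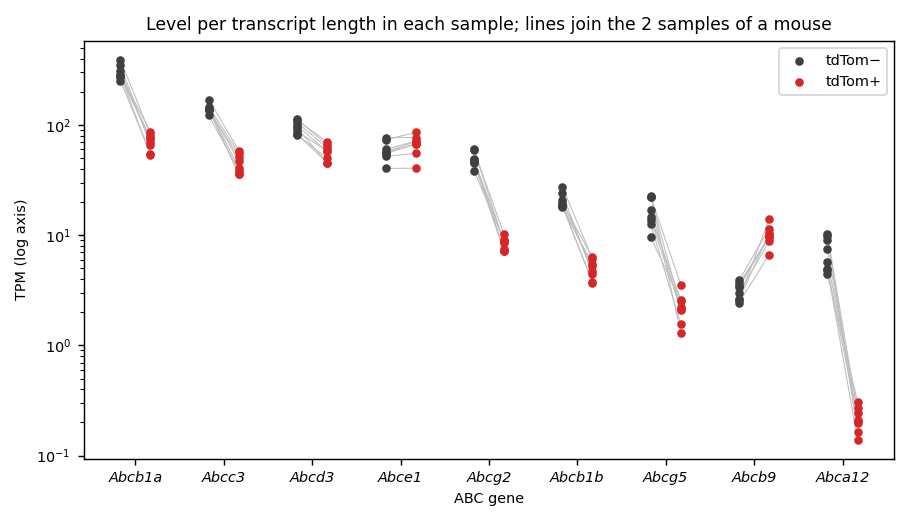
TPM on a log axis for 9 ABC genes in each sample, with tdTom- points at the left and tdTom+ points at the right of each gene and a line joining both samples of a mouse. Abcb1a drops from a median of 282 to 72.9 TPM and Abca12 from 6.6 to 0.209 TPM, Abcb9 climbs from 3.19 to 9.79 TPM, and the points of Abce1 overlap.

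Promoters are printed from RefSeq (GRCm38.p6) for some of the genes whose change was largest or which sit side by side on a chromosome. Each is given as the bases just before the start of transcription, read 5′ to 3′ on the strand named. Capitals mark the E-box CAGCTG, a hexamer of the kind that Atoh1 and related factors bind, which reads the same on both strands. The first run is the whole stretch between the divergent RefSeq starts of Abcg5 and Abcg8, whose proteins work as a pair (chr17:84683012-84683120, plus strand). The next runs belong to neighbours on chromosome 5, Abcb1b (chr5:8798047-8798146, plus strand) and Abcb4 (chr5:8893621-8893720, plus strand). Abcb1a, which lies beside them, is not printed and is not among the genes with an E-box match listed below. The last are Abcb9, the gene with the largest rise (chr5:124095799-124095898, minus strand), and Abca12, the gene with the largest fall (chr1:71414911-71415010, minus strand).
between Abcg5 and Abcg8: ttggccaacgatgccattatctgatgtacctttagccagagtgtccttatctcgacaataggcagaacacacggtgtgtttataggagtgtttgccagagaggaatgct
Abcb1b: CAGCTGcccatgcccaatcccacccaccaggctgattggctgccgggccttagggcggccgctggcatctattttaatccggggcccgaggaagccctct
Abcb4: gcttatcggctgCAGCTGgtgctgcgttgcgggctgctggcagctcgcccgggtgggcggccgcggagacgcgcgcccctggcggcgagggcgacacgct
Abcb9: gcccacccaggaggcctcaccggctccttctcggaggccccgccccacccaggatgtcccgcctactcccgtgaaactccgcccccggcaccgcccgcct
Abca12: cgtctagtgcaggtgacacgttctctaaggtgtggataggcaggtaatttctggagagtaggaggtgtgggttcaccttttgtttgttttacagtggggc
Over windows from 250 bases before to 50 bases after the start, the E-box was found in 9 of the 45 windows of 38 ABC genes and in 16.3% of all 32817 windows. The genes with a match were Abcb1b, Abcb4, Abcb5, Abcb6, Abcb9, Abcc10, Abcc9, Abcf1 and Abcg2, and the match of Abcb9 lies outside the run printed. They hold genes that were lower (Abcb1b, Abcb4, Abcb6, Abcg2), higher (Abcb9, Abcc10), not called (Abcf1) and not tested (Abcb5, Abcc9). The motif CAAAGTCCA, which HNF4 factors bind and which was searched on both strands, was found in the window of Abcd3 only among ABC genes, and in 0.475% of all windows. Such matches are descriptions of the letters in these windows.

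Of the 13 exporters of drugs, toxins and conjugates, 10 were tested, and 7 were lower, 2 higher and 1 not called. Over all genes tested, 28.9% were lower and 28.4% higher. The median log2 fold change of the exporters was -1.56. Abcg2, on chromosome 6 (chr6:58584523-58692869, GRCm38, as are all gene positions here), encodes the breast cancer resistance protein, which pumps urate, dietary compounds and drugs out of the apical membrane. Its level was 16.3 CPM in the lowest, 21.4 at the median and 24.6 in the highest tdTom+ sample, and 73.4, 113 and 168 CPM in tdTom- samples. The populations were far apart, with mouse 2 highest in both. Abcg2 was 5.55-fold lower in tdTom+ cells (log2 fold change -2.47, SE 0.070, adjusted p = 4.71e-15), and lower in 8 of 8 mice.

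Abcb1a and Abcb1b are the rodent genes for P-glycoprotein, the multidrug pump of the apical membrane, and they lie 49571 bases apart on chromosome 5 (chr5:8660077-8748575 and chr5:8798147-8866315). Abcb1a measured 165, 195 and 209 CPM (lowest, median and highest) in tdTom+ samples and 595, 750 and 1060 CPM in tdTom- samples. Abcb1b measured 16.5, 20.6 and 21.4 CPM in tdTom+ and 60.2, 73.3 and 107 CPM in tdTom- samples. In both genes the tdTom- sample of mouse 2 was the highest and that of mouse 4 the lowest, and neither gene overlapped between populations. The changes were -2.02 (SE 0.080, adjusted p = 2.83e-13) for Abcb1a and -1.99 (SE 0.081, adjusted p = 4.19e-13) for Abcb1b on the log2 scale. Their levels per length kept overlapping ratios. On the log2 TPM scale Abcb1a exceeded Abcb1b by 3.74 to 3.89 in tdTom+ and by 3.78 to 3.94 in tdTom- samples. The genes share sequence, because 17.6% of the 50-base windows of Abcb1a and 11.6% of those of Abcb1b occur in another gene, mostly in each other, so reads of that length from those stretches cannot be placed with certainty.

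Abcc3, at chr11:94343295-94392997, exports glucuronides and bile acids across the basolateral membrane. Its samples ran from 110 to 145 CPM with a median of 125 in tdTom+ cells, and from 319 to 442 CPM with a median of 378 in tdTom- cells. The lowest tdTom- sample exceeded the highest tdTom+ sample more than 2-fold. The fall was 3.0-fold (log2 fold change -1.58, SE 0.062, adjusted p = 2.26e-13). Abcc2 (chr19:43782192-43840740) moves the same kind of conjugates across the apical membrane and was scarce throughout. It had 0.259, 0.537 and 0.763 CPM in tdTom+ and 1.29, 1.92 and 3.5 CPM in tdTom- samples, which correspond to 4 to 16 and 27 to 104 counts. The populations did not overlap, and the fall of 2.06 on the log2 scale carried the widest error of the exporters (SE 0.25, adjusted p = 1.06e-06).

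Abcc6 and Abcc5 were both lower. Abcc6 (chr7:45976380-46030302), whose loss causes ectopic mineralisation in pseudoxanthoma elasticum, measured 2.36, 3.05 and 3.86 CPM in tdTom+ and 6.02, 9.02 and 11.7 CPM in tdTom- samples. Abcc5 (chr16:20331303-20426394), an exporter of cyclic nucleotides, measured 6.07, 8.15 and 9.96 CPM in tdTom+ and 17.5, 21.5 and 39.0 CPM in tdTom- samples. Every tdTom+ sample of either gene lay below every tdTom- sample. The log2 fold changes were -1.55 (SE 0.12, adjusted p = 1.99e-09) and -1.54 (SE 0.12, adjusted p = 2.15e-09).

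The remaining exporters were not lower. Abcc1, which exports glutathione conjugates and leukotriene C4, had medians of 52.9 CPM (tdTom+) and 52.8 CPM (tdTom-). Its log2 fold change of -0.02 had a 95% interval from -0.11 to 0.08 (adjusted p = 0.774), and its 8 samples overlapped fully between populations. Abcc4, an exporter of cyclic AMP and prostaglandins, was higher in 7 of 8 mice, at 23.7 to 30.6 CPM against 15.8 to 24.4 CPM (log2 fold change 0.41, SE 0.079, adjusted p = 1.83e-04). Abcc10, another drug exporter, rose by 0.22 on the log2 scale (SE 0.065, adjusted p = 0.00652) with overlapping samples. That call was lost without the mouse block (adjusted p = 0.0212) and when mouse 3, 5, 6 or 8 was left out. The rise was 0.06 in mice 1 to 3 and 0.33 in mice 5 to 8. Abcb5, Abcc12 and Abcg3 were not tested, with 1, 11 and 14 counts over all 16 samples.

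Among the 22 sterol and lipid transporters, 11 were tested, of which 6 were lower, 2 higher and 3 not called. Lower and higher calls made up 28.9% and 28.4% of all genes tested. The median log2 fold change of these transporters was -0.3. Abca12 (chr1:71242276-71414910) is known from the skin, where it loads glucosylceramide into lamellar granules. Its level was 1.13, 1.55 and 1.95 CPM in tdTom+ samples and 25.2, 48.2 and 84.8 CPM in tdTom- samples. The tdTom+ samples were close together, while the tdTom- samples spread over more than 3-fold, with mouse 4 lowest and mouse 2 highest. Abca12 was 30.5-fold lower in tdTom+ cells (log2 fold change -4.93, SE 0.15, adjusted p = 1.14e-14), and the difference within a mouse ran from -5.82 to -3.7.

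Abcg5 and Abcg8 encode both parts of the apical pump that returns plant sterols and cholesterol to the lumen, and their models meet head to head on chromosome 17 (chr17:84658234-84683011 and chr17:84676302-84700333). Abcg5 had 1.74, 2.98 and 4.39 CPM in tdTom+ and 12.4, 20.6 and 28.5 CPM in tdTom- samples. For Abcg8 the values were 1.23, 1.6 and 3.32 CPM in tdTom+ and 6.02, 9.77 and 11.7 CPM in tdTom- samples. Neither gene overlapped between populations, and mouse 5 was the highest tdTom+ sample for both. Abcg5 was 7.05-fold lower (log2 fold change -2.82, SE 0.15, adjusted p = 2.36e-11) and Abcg8 5.1-fold lower (log2 fold change -2.35, SE 0.16, adjusted p = 5.85e-10). Per length, Abcg5 exceeded Abcg8 by a median of 0.96 on the log2 TPM scale in tdTom+ and 1.62 in tdTom- samples, over ranges of 0.79 to 1.92 and 1.17 to 1.96 that overlap. The models used for counting overlap by 6710 bases on opposite strands, unlike the RefSeq starts around the printed stretch, and the counting used the strand.

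Abcb4, the last of the chromosome 5 neighbours (chr5:8893717-8959231, 27401 bases past Abcb1b), moves phosphatidylcholine into bile in the liver. It had 2.33, 2.87 and 3.89 CPM in tdTom+ and 10.1, 13.6 and 18.3 CPM in tdTom- samples. As with both of its neighbours, every tdTom+ sample was below every tdTom- sample. The log2 fold change was -2.17 (SE 0.12, adjusted p = 3.34e-11), next to -2.02 and -1.99 for Abcb1a and Abcb1b.

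Abca1, which hands cholesterol and phospholipid to apolipoprotein A-I, fell by 0.94 on the log2 scale (SE 0.10, adjusted p = 2.6e-07), at 6.33 to 9.29 CPM in tdTom+ and 9.69 to 23.4 CPM in tdTom- samples. Abca7, a close relative, fell by 0.30 (SE 0.058, adjusted p = 2.18e-04) in 7 of 8 mice with overlapping samples. The other sterol exporter of the macrophage, Abcg1, had a log2 fold change of 0.14 with a 95% interval from -0.13 to 0.42 (adjusted p = 0.339) and was higher in only 3 of 8 mice. Its difference within a mouse was 1.05 in mouse 4 and 0.59 in mouse 6 but between -0.25 and 0.19 in the other 6.

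Higher levels in tdTom+ cells were found for Abca3 and Abca2. Abca3 packs surfactant lipids into the lamellar bodies of the lung, and here it measured 115, 129 and 138 CPM in tdTom+ and 84.6, 93.6 and 107 CPM in tdTom- samples. All tdTom+ samples were above all tdTom- samples (log2 fold change 0.44, SE 0.045, adjusted p = 1.31e-07). Abca2, a lipid transporter of endosomes and lysosomes, rose by 0.34 (SE 0.066, adjusted p = 1.89e-04) in 8 of 8 mice with overlapping ranges. Abca17, which starts 920 bases from Abca3 on the other strand, had an estimate of 0.53 (95% interval 0.10 to 0.95, adjusted p = 0.0277) at levels of 0.874 to 2.24 CPM over both populations. Abca5 had an estimate of -0.20 with an interval from -0.57 to 0.17 (adjusted p = 0.328).

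The 11 lipid transporters that were not tested were Abca4, Abca6, Abca8a, Abca8b, Abca9, Abca13, Abca14, Abca15, Abca16, Abcb11 and Abcg4. Abca6 and Abca16 had 0 counts in every sample. Abcb11, the bile salt export pump of the liver, had 10 counts, all in tdTom- samples. Abca8b, one of a row of 5 Abca genes on chromosome 11 that ends with Abca5, had at most 2 counts in any tdTom+ sample and 5 to 20 in each tdTom- sample. The sums over tdTom+ and tdTom- samples were 14 and 62 for Abca13 and 18 and 62 for Abca14, and the other 5 had 5 to 71 counts in all. No gene of the 16 left untested exceeded 20 counts in a sample.

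**Figure D5:**
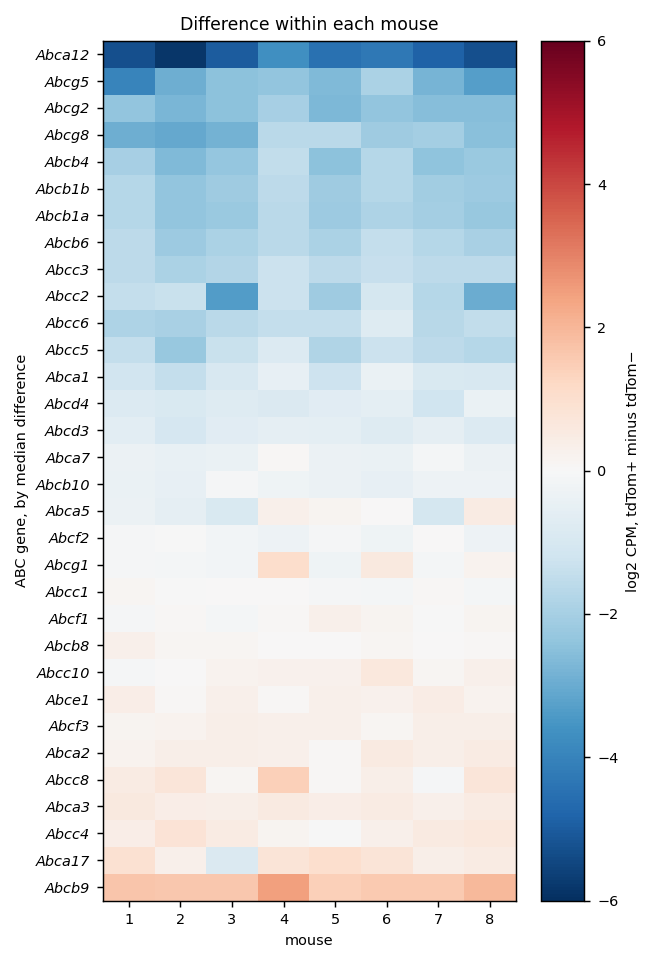
The log2 CPM difference, tdTom+ minus tdTom-, in each of the 8 mice (columns) for 32 tested ABC genes (rows, by median difference), in blue where lower and red where higher in tdTom+ cells. The top rows are blue in all 8 mice, Abcb9 in the last row is red in all 8, and Abcg1 in the middle holds 1.05 in mouse 4 beside values below 0 in 5 mice.

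The 9 transporters of organelle membranes held both directions: 8 were tested, 5 were lower, 2 higher and 1 not called. Beside them, 28.9% of all genes tested were lower and 28.4% higher. The median log2 fold change of the organelle group was -0.47. Abcb9 (chr5:124061530-124095798) carries peptides from the cytosol into lysosomes and was the one ABC gene that rose by more than 1 on the log2 scale. It measured 21.5, 27.8 and 32.0 CPM in tdTom+ and 5.73, 8.96 and 9.98 CPM in tdTom- samples. The lowest tdTom+ sample was above the highest tdTom- sample by more than 2-fold. Abcb9 was 3.38-fold higher (log2 fold change 1.76, SE 0.10, adjusted p = 2.64e-11), with differences of 1.45 to 2.46 within the 8 mice. Per length its median moved from 3.19 TPM in tdTom- to 9.79 TPM in tdTom+ cells. Of its relatives in antigen processing, Tap1 and Tap2, which carry other symbols, neither rose: their log2 fold changes were -0.25 (SE 0.054, adjusted p = 5.76e-04) and -0.22 (SE 0.062, adjusted p = 0.00448), and both calls were lost without the mouse block (adjusted p = 0.165 and 0.021).

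Of subfamily D, Abcd3 and Abcd4 were lower. Abcd3, the abundant peroxisomal carrier of branched-chain acids and bile acid intermediates (chr3:121758774-121815302), had 173, 181 and 203 CPM in tdTom+ and 258, 293 and 343 CPM in tdTom- samples. Abcd4, which exports cobalamin from lysosomes, had 6.63, 8.63 and 10.6 CPM in tdTom+ and 13.3, 14.6 and 17.2 CPM in tdTom- samples. Neither gene overlapped between populations, although each changed by less than 1 on the log2 scale. The log2 fold changes were -0.69 (SE 0.055, adjusted p = 4.67e-09) for Abcd3 and -0.78 (SE 0.084, adjusted p = 2.58e-07) for Abcd4. Abcd2, a peroxisomal fatty acid carrier, was not tested, with 39 and 38 counts over all tdTom+ and all tdTom- samples.

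Of the mitochondrial members, Abcb6 and Abcb10 were lower. Abcb6 (chr1:75171717-75180392), which binds porphyrins, measured 1.48, 1.75 and 2.48 CPM in tdTom+ and 5.47, 6.27 and 8.4 CPM in tdTom- samples. The populations were apart, and the log2 fold change was -1.82 (SE 0.11, adjusted p = 1.22e-10). These values are uncertain in level, because 55.2% of its exon bases lie under the model Gm29253 on the same strand, to which no read was counted in any sample. Abcb10, of the inner membrane and needed for heme synthesis, fell by 0.33 (SE 0.053, adjusted p = 2.98e-05), at 27.1 to 36.6 CPM against 37.7 to 41.7 CPM. Abcb8 had an estimate of 0.09 with an interval from -0.00 to 0.19 (adjusted p = 0.0797). It was higher in 8 of 8 mice, by 0.0 to 0.31, and was not called.

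The soluble ABC proteins were abundant and moved little. Abce1 (chr8:79683442-79711740) splits ribosomes after termination and had 89.8, 126 and 142 CPM in tdTom+ and 85.3, 101 and 124 CPM in tdTom- samples. The ranges overlapped, but the tdTom+ sample was the higher one in 8 of 8 mice (log2 fold change 0.26, SE 0.050, adjusted p = 2.32e-04). Without the block the call was lost (adjusted p = 0.0112). Abcf3 rose by 0.27 (SE 0.046, adjusted p = 5.28e-05), with 46.4 to 54.6 CPM above 36.7 to 44.7 CPM and no overlap. Abcf1, a partner of the initiation factor eIF2, had an estimate of 0.06 (interval -0.04 to 0.17, adjusted p = 0.261). Abcf2 had an estimate of -0.15 (interval -0.25 to -0.04, adjusted p = 0.015), lower in 7 of 8 mice and short of the threshold.

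Abcc8, the sulfonylurea receptor of the KATP channel in endocrine cells, was the one potassium channel subunit tested. It had 4.84, 6.52 and 13.5 CPM in tdTom+ and 3.84, 5.02 and 9.68 CPM in tdTom- samples. Mouse 1 was the highest sample in both populations, and the ranges overlapped. The rise of 0.51 on the log2 scale (SE 0.14, adjusted p = 0.00324) was seen in 7 of 8 mice, lost its call without the block (adjusted p = 0.0417) or without mouse 8, and was 0.38 without mouse 4, where the difference within the mouse was 1.41. In mice 5 to 8 alone the estimate was 0.29 (adjusted p = 0.104). All 9 enteroendocrine markers were lower in tdTom+ cells, from -3.52 (Tph1) to -0.85 (Gcg), with a median of -1.52. A link between them and Abcc8 was not tested. Abcc9, the second receptor subunit, was not tested with 39 counts in all. The channel pores Kcnj8 and Kcnj11 were not tested either, with 124 and 181 counts in all.

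Genes that act beside the ABC genes were read from the same fit. For comparison with every list below, 28.9% of all genes tested were lower and 28.4% higher. Of 10 carriers of bile acids and organic anions, 8 were lower and 1 higher, with a median of -2.26. The lower ones included Slc10a2, Slc51a and Slc51b, which take up and release bile acids (log2 fold changes -4.88, -4.53 and -4.08), and Slco4a1 was higher at 0.89. Among 6 genes that supply glutathione, a substrate and partner of Abcc exporters, 5 were lower and 1 higher, with a median of -1.06. Ggt1 (-5.34), Gss (-1.38) and Gclc (-1.15) led the falls, and the cystine carrier Slc7a11 was higher (1.64). The lowest tdTom+ sample of Ggt1, at 0.358 CPM, was under the 0.517 CPM of the filter. Ggt1 therefore passed the filter only through its tdTom- samples. Of 14 nuclear receptors and other factors known to regulate ABC genes, 11 were lower and none higher, with a median of -1.17. Nr1i3 (-4.13), Ppara (-1.65) and Nr1h4 (-1.42) were among those that fell, and Nr1h2 and Ppard were not called. Nr1i3 had only 2 to 5 counts in a tdTom+ sample, around the floor of 3, and passed the filter only through its tdTom- samples. The size of its fall is therefore uncertain.

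Partners of the sterol transporters moved both ways. Of 15 genes of sterol handling, 11 were tested, of which 5 were higher and 3 lower, with a median of 0.12. Soat1 (0.96) was among the higher ones, while Apoe (-1.32), Soat2 (-0.99) and Npc1 (-0.55) were lower. In peroxisomes, where Abcd3 acts, 11 of 14 genes of import and beta-oxidation were lower, among them Acaa1b (-1.39) and Hsd17b4 (-0.79), and Pex3 was higher (0.28), with a median of -0.49. Of 18 genes of heme and iron-sulfur cluster synthesis, 6 were higher and 7 lower, beside 28.4% and 28.9% of all genes tested. Their median was -0.01. Cpox (0.87), Uros (0.79) and Fech (0.47) rose, and Alas1 (-1.33), Slc25a37 (-0.62) and Slc25a28 (-0.51) fell.

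Of 7 genes of ribosome rescue and eIF2 control, the setting of Abce1 and Abcf1, 4 were higher and 1 was lower, with a median of 0.18. Eif2ak4 (0.78), Pelo (0.67) and Etf1 (0.27) rose most, and Eif2s2 fell (log2 fold change -0.63). Of 7 genes of cobalamin handling, the pathway of Abcd4, 2 were higher, Mmadhc (0.52) and Mut (0.35), and none was lower. Their median was 0.09, and the share of higher calls was near the 28.4% of all genes tested. Among ABC genes under other symbols, Cftr, the chloride channel of the apical membrane, was lower with a log2 fold change of -1.07 (SE 0.051, adjusted p = 3.5e-12) and medians of 114 CPM (tdTom+) and 242 CPM (tdTom-). These lists and the ABC genes come from the same samples and the same fit, and no difference between lists was tested.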

How the data were processed

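Colon samples of 8 mice were analysed, 1 tdTom+ and 1 tdTom- sample from each. The authors sequenced 50 bp single-end reads from TruSeq Stranded mRNA libraries and deposited raw counts per gene, 1 file a sample. Per the file headers these counts came from featureCounts 1.5.0-p1 on exons, with primary alignments on the reverse strand; the submitters' processing notes name TopHat2 2.1.1, Subread 1.5.2, DESeq2 1.14.1 and GRCm38.p3. Symbols were matched by gene ID to GENCODE for 44585 of 45513 genes, and promoters to RefSeq for 38 of the 50 ABC genes.

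The deposited counts were fitted over all genes in R 4.3.3 with edgeR 4.0.16 (filterByExpr, TMM, quasi-likelihood test, mouse as a block), with Benjamini-Hochberg adjustment over 15841 tested genes and a threshold of 0.01. The filter asked for about 0.517 CPM in 8 samples. Every fold change is on the log2 scale, and every adjusted p is from this fit unless another is named. CPM values carry the TMM scaling, and TPM and shares of counts do not. The block rests on the animal, as the labels give 1 number to both samples of a mouse. Deviations from the group means correlated at 0.223 to 0.408 within mice and at most 0.168 between mice. The tests were tried on simulated data.

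The ABC genes, the roles and the other lists were chosen with earlier results of these data known. Every tested ABC gene is named except 2, which with some genes of the other lists are not reported here; the counts include them. Genes past the threshold that changed by over 1 on the log2 scale, and the 3 most abundant per length in either population, have their samples given, and in other lists up to 3 genes each way are named. Alternatives were the fit without the block, DESeq2 1.42.0, limma 3.58.1 (voom), other normalizations and filters, other thresholds, each mouse left out, and the mice numbered 1 to 3 and 5 to 8 apart. The animal numbers in the sample titles form 3 series (mice 1 to 3, mouse 4, mice 5 to 8), and no batch is stated. Counting error alone stands behind the floor of 3 counts. Small intestinal samples were not analysed here.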

Additional observations from a re-analysis of the deposited data

Results flagged for a closer look

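In 3 of 64 sets of 8 samples (32 ABC genes in each population), 1 sample stood apart from the other 7 by more than Dixon's 95% critical value. About 1 in 20 sets does so by chance, or 3.2 of 64. Abcc8 reached a log2 CPM of 3.29 in the tdTom- cells of mouse 1, where the other tdTom- samples lay at 1.98 to 2.57. Abce1 was at 6.49 in the tdTom+ cells of mouse 2, below 6.9 to 7.15 in the others. Abcb8 was at 6.17 in the tdTom+ cells of mouse 4, above 6.04 to 6.08.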

How the results depend on the processing

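Over 577 values of the 34 tested ABC genes under the alternatives, 553 had the same sign and the same call, 15 lost their call, 3 gained one and 6 turned direction. The values that turned belong to genes with no call: Abcc1 ranged from -0.03 to 0.01 as mice were left out, at 0.0 without mouse 4, 0.0 without mouse 6, 0.01 without mouse 8, and was at 0.04 in mice 1 to 3, where Abcf1 was at -0.04 and Abcg1 at -0.12. Without the mouse block, 6 ABC genes were higher and 18 lower (9 and 18 with it), and over all genes 4032 were higher and 4042 lower (4494 and 4574 with it); Abcc10, Abce1 and Abcc8 lost their calls and no other ABC gene did. Mice 1 to 3 alone gave 4 ABC genes higher and 17 lower (3315 and 3148 over all genes), with the calls of Abcc10, Abcc8, Abce1, Abcf3, Abca2 and Abcb10 lost; this fit rests on fewer samples. A change over 1 on the log2 scale left 1 ABC gene higher, and 1204 genes higher and 1451 lower over all. Leaving out 1 mouse gave 7 to 9 ABC genes higher and 18 to 19 lower, and 4255 to 4692 genes higher and 4241 to 4388 lower over all. Abcc10 lost its call without mouse 3, 5, 6 or 8 (0.17 to 0.26 over all omissions) and Abcc8 without mouse 8 (0.38 to 0.59), while Abca17 gained one without mouse 3 and Abcf2 without mouse 7. RLE and upper-quartile normalization, DESeq2 and limma-voom changed no call of an ABC gene. Depth limits the 16 genes that were not tested.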
